A study of Mus musculus with 14 samples.

Results

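Col4a1, Col4a2, Nid1 and Nid2 encode the collagen IV chains and the nidogens of the basement membrane, and they were followed here through mouse embryonic fibroblasts (MEFs) deprived of amino acids, given cysteamine or depleted of the lysosomal cystine exporter cystinosin. The genes were chosen by name with earlier results of these data known, so the shares of them called below are descriptive. Each had 1 of the 1399 transcripts in the tables: ENSMUST00000033898 (Col4a1), ENSMUST00000033899 (Col4a2), ENSMUST00000005532 (Nid1) and ENSMUST00000022340 (Nid2). The study comprised 14 libraries of polyadenylated RNA in 7 groups of 2, all labelled as wild-type MEF cells. NT received no treatment, Cys was starved of cysteine and AA was starved of all amino acids. NT2 likewise received no treatment, Cysteamine received cysteamine, a drug that clears cystine from lysosomes, CTNS-KD was transfected with sh-CTNS, a short hairpin RNA, and CTNS-KD-rescue with sh-CTNS together with a CTNS plasmid. The sources used here give neither doses nor durations. No library analysed here was labelled as transfected with a control hairpin or an empty plasmid, so knockdown and transfection cannot be told apart. The cystinosin transcript itself was not analysed here, and the knockdown and its rescue could therefore not be checked. The column headers give NT, Cys and AA a common prefix that the other groups lack, and NT was taken as the control of the starvations and NT2 as that of the other treatments.

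Basement membranes are thin sheets of matrix that underlie epithelia and endothelia and surround muscle, fat and nerve. The α1 and α2 chains of collagen IV, products of Col4a1 and Col4a2, assemble inside the cell into a heterotrimer with more α1 than α2, and the secreted trimers join into a network held by disulfide and sulfilimine bonds. Nidogen-1 and nidogen-2, rod-like glycoproteins rich in disulfide-bonded cysteines, bind both laminin and collagen IV and link the laminin and collagen sheets. Fibroblasts and other mesenchymal cells are a major source of nidogens for the basement membranes of neighbouring epithelia.

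Col4a1 and Col4a2 lie head to head on chromosome 8 and are transcribed away from each other, Nid1 lies on chromosome 13 and Nid2 on chromosome 14. RefSeq promoter windows (GRCm38.p6, 250 bases before to 50 bases after a start site) were matched for 3 of the 4 genes, Nid2 being the exception. The windows of Col4a1 and Col4a2 shared 78 bases. Their annotated first exons overlapped by the 22 bases shown first below, given because both collagen genes start within this stretch, so reads from it could belong to either gene unless strand was used. The stretch of 199 bases that lies before the annotated transcript of Nid1 is shown because Nid1 changed in both directions in these data. Capitals mark a GC box (GGGCGG) in both, and in Nid1 also a CCAAT box (read on the other strand, as ATTGG) and a TEAD site (GGAATG).
Col4a1 and Col4a2 first exons, chr8:11312805-11312826, plus strand: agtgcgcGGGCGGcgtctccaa
Nid1 upstream, chr13:13437352-13437550, plus strand: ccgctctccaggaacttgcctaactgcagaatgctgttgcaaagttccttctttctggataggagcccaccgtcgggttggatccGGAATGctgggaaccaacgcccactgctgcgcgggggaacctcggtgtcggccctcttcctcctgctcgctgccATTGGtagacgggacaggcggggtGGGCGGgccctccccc
Searched on both strands of the full windows, the GC box and the CCAAT box were found in all 3 genes, against 35.7% and 37.4% of 32851 promoter windows of the same length. The only GC box of Col4a1 was the one in the overlap above, which was counted for Col4a2 as well. The letters GGAATG were found in Nid1 alone of the 3 (14.7% of all windows) and TGACNNNGC, the core of the antioxidant response element, in Col4a2 alone (12.4%). No match was found in the 3 windows for the TATA box motif with the letters TATAAA (13.6% of all windows), TGANTCA (AP-1, 7.81%) or TGATGNAA (core of the amino acid response element, 3.97%). The windows were rich in G and C, at 74.0% in Col4a1, 73.7% in Col4a2 and 64.7% in Nid1 against a median of 52.7%.

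The tables list transcripts with at least 1 count in every library, and totals over them ran from 25697 to 51224 in NT, Cys and AA and from 64530 to 165747 in the other 4 groups. Together the 4 genes had 18 to 240 counts per library in the first 3 groups and 234 to 974 in the others. A class of 357 transcripts with a high level in NT relative to NT2, defined from the data and holding none of the 4 genes, took 63.8% to 87.1% of the counts in NT, 38.1% to 57.7% in Cys and 78.9% to 83.1% in AA. It took 9.70% to 9.87% in NT2, 16.6% to 17.7% in Cysteamine, 32.3% to 33.1% in CTNS-KD and 39.9% to 42.3% in CTNS-KD-rescue. Of 12 fibroblast markers 7 were listed (Col1a1, Col1a2, Col3a1, Fn1, Vim, Fbn1 and S100a4), and their summed share was 4.92% to 5.26% in NT2, 2.7% to 2.79% with the drug, 1.42% to 1.43% in CTNS-KD and 2.16% to 2.23% in the rescue. In the first 3 groups it was 0.595% to 1.84% in NT, 2.8% to 3.51% in Cys and 0.692% to 1.17% in AA. None of the 6 endothelial, 4 immune or 5 parietal endoderm markers looked for was listed, of 5 epithelial markers Cdh1 alone was (at most 0.0292% of a library), and of 5 smooth muscle markers Acta2 and Tagln were. The levels below are CPM, counts relative to the table total of each library after TMM scaling, with the SD over the 2 libraries of a group. Log2 fold changes carry a standard error, and every adjusted p, unless another tool is named, is from edgeR's quasi-likelihood test, adjusted by the Benjamini-Hochberg method over 1399 transcripts. A change was called at an adjusted p under 0.05.

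In NT2, per kilobase of transcript, Col4a1 stood at 205 ± 19.4 CPM, Nid2 at 174 ± 16.4, Col4a2 at 142 ± 7.15 and Nid1 at 82.0 ± 13.7 (n = 2 each). Across the 7 groups Col4a1 was highest in Cys (1909 ± 132 CPM) and lowest in CTNS-KD (876 ± 78.1), and from NT2 downwards every neighbouring pair of groups in the order NT2, CTNS-KD-rescue, NT, AA, CTNS-KD overlapped. Col4a2 was highest in AA (1950.4 ± 707 CPM), with every other group between 675 ± 261 (NT) and 1302 ± 142 (CTNS-KD-rescue). As a ratio of its highest to its lowest group, Nid1 covered the widest range, from 181 ± 11.4 CPM in CTNS-KD-rescue to 1409 ± 128 in Cysteamine, and its 3 lowest groups, NT, CTNS-KD and CTNS-KD-rescue, overlapped in that order. Nid2 was highest in NT2 (850.3 ± 79.7 CPM) and lowest in CTNS-KD (157 ± 2.07), and Cys, NT, AA and CTNS-KD-rescue, which lay between, overlapped as neighbours. The 2 untreated groups stood at 308 ± 20.1 (NT) and 850.3 ± 79.7 (NT2) for Nid2 and at 223 ± 38.7 and 499 ± 83.2 for Nid1. They belong to separate experiments, so treatment and experiment cannot be told apart in an order that runs across both. The orders of the 4 genes also depend on the TMM factors, which were 0.477 and 0.506 in AA and 1.52 and 1.55 in NT2. Col4a2 made up 36 of 30784 and 33 of 44946 counts in AA, and 239 of 165747 and 182 of 132998 in NT2. Its unscaled share was thus lower in AA. On that scale Col4a1 was not highest in Cys. Col4a1, Nid1 and Nid2 were then not lowest in the groups named above.

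**Figure D1:**
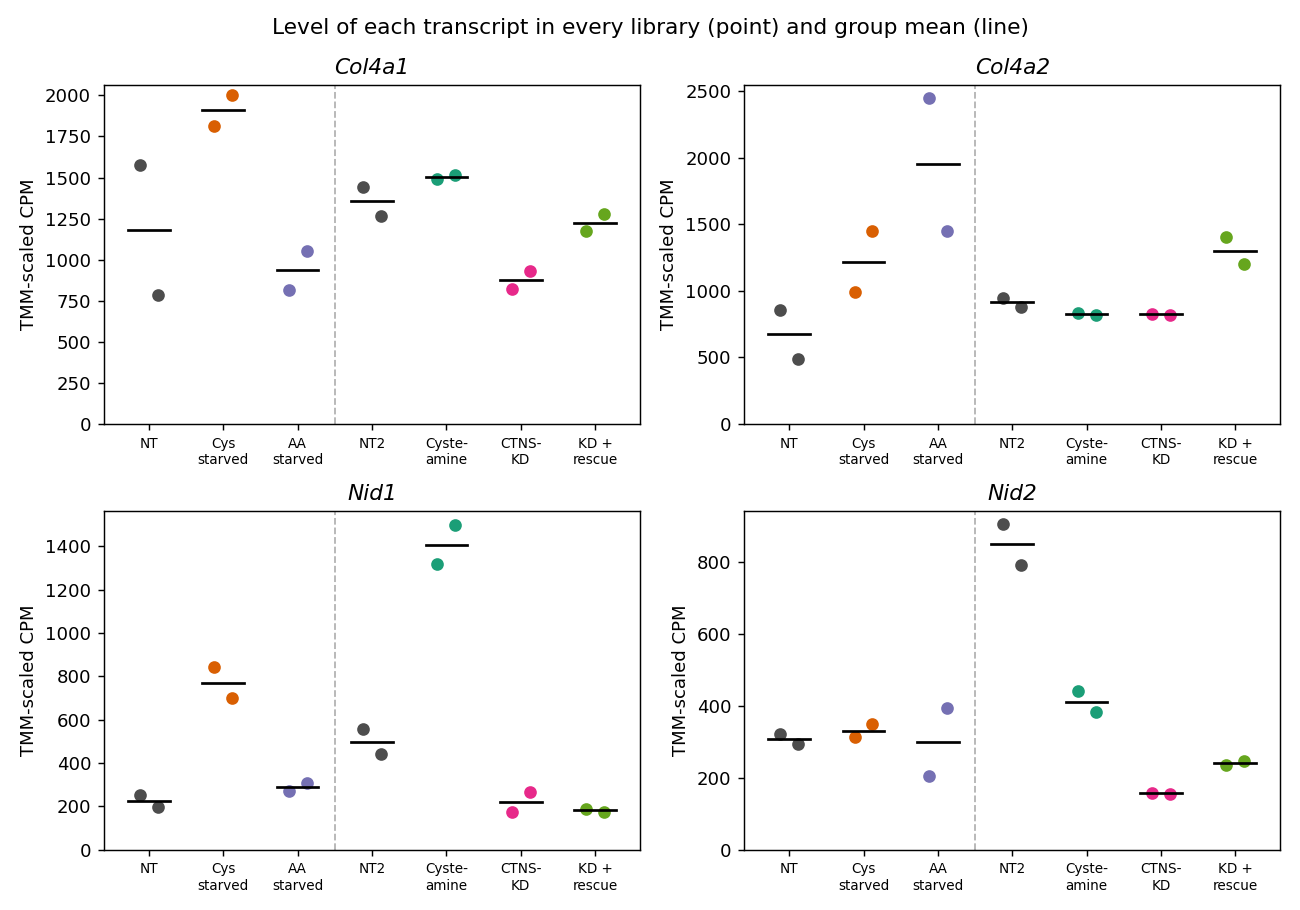
TMM-scaled CPM (vertical axis, starting at 0) of Col4a1, Col4a2, Nid1 and Nid2 in each library (points) of the 7 groups, with the mean of the 2 libraries as a line and a dashed line between the experiments. Both cysteamine libraries are the highest of all for Nid1 (1318 and 1499 CPM), and both NT2 libraries are the highest of all for Nid2 (907 and 794 CPM).

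Cysteamine against NT2 asks what follows when lysosomal cystine is removed by the drug, and the nidogens moved in opposite directions. Nid1 measured 1318 and 1499 CPM in the cysteamine libraries (247 and 337 counts) and 558 and 441 CPM in NT2 (141 and 91 counts). The treated libraries lay far above both controls. Nid1 rose 2.81-fold (log2 fold change 1.49 ± 0.17, adjusted p = 0.000124), which placed it 39th from the top of 1399. Nid2 measured 443 and 383 CPM with cysteamine (83 and 86 counts) and 907 and 794 CPM in NT2 (229 and 164 counts), so that the treated libraries were below both controls. Nid2 fell 2.07-fold (-1.05 ± 0.16, adjusted p = 0.000835). Neither collagen chain was called, though Col4a1 lay above and Col4a2 below both controls. Col4a1 measured 1489 and 1517 CPM with cysteamine and 1445 and 1263 CPM in NT2 (0.15 ± 0.22, adjusted p = 0.692), and Col4a2 838 and 818 CPM against 946 and 881 CPM (-0.14 ± 0.23, adjusted p = 0.720). Thus 2 of 4 genes were called, where 10.5% of all transcripts were. Both treated libraries lay above both controls for 39.7% of all transcripts and below them for 26.2%. In bulk RNA, fewer cells of a type and less RNA per cell cannot be told apart. Of the 7 fibroblast markers 2 were called lower with cysteamine and 5 were below 0, with a median of -0.68. They ran from -1.94 (Col1a2) to 0.76 (Vim), and their part in the fall of Nid2 was not tested. Per 1000 counts of these markers, Nid1 stood at 67.4 and 74.4 with cysteamine and at 16.2 and 13.9 in NT2, and Nid2 at 22.7 and 19.0 against 26.3 and 25.1. Col4a1 stood at 76.1 and 75.3 against 41.9 and 39.9, and Col4a2 at 42.8 and 40.6 against 27.4 and 27.8. Limma called 0 of 1399 transcripts here, where edgeR gave 387 an unadjusted p under 0.05 and DESeq2 made 165 calls. It gave adjusted p = 0.123 for Nid1 and 0.333 for Nid2. Without Cysteamine replicate 2 the adjusted p of Nid2 was 0.0572.

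The knockdown against NT2 asks what the loss of the cystine exporter does, and here both nidogens fell. Nid2 measured 158 and 155 CPM in CTNS-KD (21 and 17 counts) against 907 and 794 CPM in NT2. No other group had so little Nid2 by CPM. Its fall was 5.40-fold (-2.43 ± 0.21, adjusted p = 1.90e-06), and 4 of 1399 transcripts had a lower fold change. Nid1 measured 173 and 265 CPM in the knockdown (23 and 29 counts) against 558 and 441 CPM, a 2.32-fold fall (-1.21 ± 0.23, adjusted p = 0.00124). Col4a1 measured 821 and 932 CPM (109 and 102 counts) against 1445 and 1263 CPM (365 and 261 counts). Its call was at the threshold (-0.63 ± 0.23, adjusted p = 0.0491) and was lost under 8 of 13 alternatives, among them the omission of any 1 of the 4 libraries (adjusted p 0.117 to 0.274) and the scaling by DESeq2's size factors (0.0663). Col4a2 measured 829 and 822 CPM against 946 and 881 CPM and was not called (-0.15 ± 0.24, adjusted p = 0.669). Of the 4 genes 3 were called lower, against 13.2% of all transcripts. All 4 had both knockdown libraries below both controls, as had 31.6% of all transcripts.

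The fibroblast markers moved with this fall: 5 of 7 were called lower in the knockdown and all 7 were below 0, with a median log2 fold change of -1.63 against 0.092 over all transcripts. Per 1000 counts of these markers Nid2 stood at 15.0 and 14.9 in the knockdown and at 26.3 and 25.1 in NT2, so it was lower on this scale too. Nid1 stood at 16.4 and 25.4 against 16.2 and 13.9, and was not lower on that scale. On the same scale Col4a1 was higher in the knockdown, at 77.9 and 89.5 against 41.9 and 39.9, and so was Col4a2, at 78.6 and 78.9 against 27.4 and 27.8. A gene that fell less than the markers stands higher on this scale, also where its own level fell. The part of the fibroblast markers in the fall of the nidogens was not tested. Without the class high in NT, Nid2 and Nid1 were still called lower, at -2.31 and -1.10.

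The rescue against the knockdown asks whether the CTNS plasmid brings the genes back, and none of the 4 was called. Nid1 measured 190.0 and 173 CPM in the rescue (20 and 14 counts) against 173 and 265 CPM in the knockdown, with overlapping libraries (-0.24 ± 0.31, adjusted p = 0.809). Nid2 measured 237 and 248 CPM (25 and 20 counts) against 158 and 155 CPM, with both rescue libraries higher (0.62 ± 0.27, adjusted p = 0.448). Col4a2 measured 1403 and 1201 CPM against 829 and 822 CPM (0.66 ± 0.24, adjusted p = 0.324), and Col4a1 1175 and 1276 CPM against 821 and 932 CPM (0.48 ± 0.24, adjusted p = 0.448). For Col4a1, Col4a2 and Nid2 both rescue libraries thus lay above both knockdown libraries, as they did for 24.2% of all transcripts. In this comparison edgeR called 0.643% of all transcripts. Of the 7 fibroblast markers 1 was called higher in the rescue and 1 was below 0, with a median of 0.92. Per 1000 counts of these markers Nid2 stood at 13.1 and 13.9 in the rescue and at 15.0 and 14.9 in the knockdown. Col4a1 stood at 65.1 and 71.7 against 77.9 and 89.5, and Col4a2 at 77.7 and 67.5 against 78.6 and 78.9. The part of the markers was not tested. Fitted on the 8 libraries of its own experiment, Col4a2 was called higher (0.66, adjusted p = 0.0169), as it was without the class high in NT (0.75, adjusted p = 0.0128). It was not called with table totals in place of TMM (0.51, adjusted p = 0.635) or by limma (0.64, adjusted p = 0.998). With 1 library left out it stood between 0.55 and 0.76.

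Set against NT2, the rescue libraries still had less of both nidogens. Nid2 was 3.51-fold lower (-1.81 ± 0.20, adjusted p = 1.78e-05) and Nid1 2.74-fold lower (-1.45 ± 0.25, adjusted p = 0.000530), and no rescue library reached an NT2 library for either gene. Col4a1 overlapped NT2 (-0.15 ± 0.23, adjusted p = 0.664). Col4a2 was above NT2 in both rescue libraries without passing the test (0.51 ± 0.23, adjusted p = 0.108). It passed without the class high in NT (0.72, adjusted p = 0.00113) and in the fit on its own experiment (0.42, adjusted p = 0.0171). It did not pass with table totals in place of TMM (0.18, adjusted p = 0.715) or by limma (0.50, adjusted p = 0.452). Thus 2 of 4 genes were called lower, against 12.9% of all transcripts. Both rescue libraries lay below both NT2 libraries for 34.4% of all transcripts and above them for 34.0%. The comparisons with NT2 share its 2 libraries. Per 1000 fibroblast marker counts, Nid1 stood at 10.5 and 9.75 in the rescue and Nid2 at 13.1 and 13.9, each below both NT2 libraries, while Col4a1 (65.1 and 71.7) and Col4a2 (77.7 and 67.5) stood above them. Of the 7 markers 3 were called lower in the rescue.

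The drug and the knockdown were also compared directly, since the drug clears lysosomal cystine and the hairpin is aimed at its exporter. Cystine levels are not among the data analysed here. Nid1 had the lowest log2 fold change of all 1399 transcripts: it was 6.51-fold lower in the knockdown (219 ± 64.8 against 1409 ± 128 CPM; -2.70 ± 0.21, adjusted p = 1.24e-06). Nid2 was 2.61-fold lower (157 ± 2.07 against 413 ± 42.8 CPM; -1.38 ± 0.22, adjusted p = 0.000976), and Col4a1 1.72-fold lower (876 ± 78.1 against 1503 ± 19.6 CPM; -0.78 ± 0.23, adjusted p = 0.0241). Col4a2 overlapped, at 825 ± 4.69 against 828 ± 13.8 CPM (-0.0045 ± 0.24, adjusted p = 0.995). The 3 calls stand against 14.7% of transcripts called lower. The call of Col4a1 was lost when any 1 of the 4 libraries was left out (adjusted p 0.101 to 0.184), and limma gave adjusted p = 0.135 for Nid2. Of the 7 fibroblast markers 3 were also called lower in the knockdown than with cysteamine, and all 7 were below 0.

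**Figure D2:**
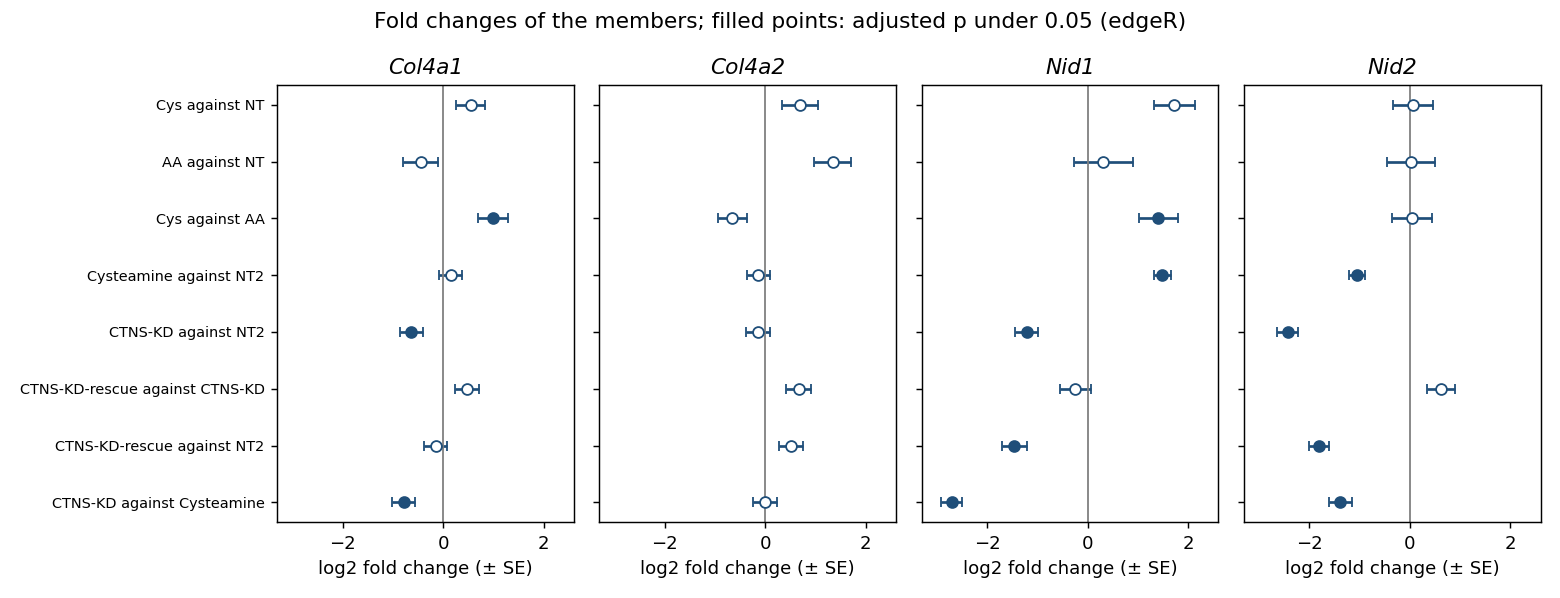
Log2 fold change with its SE (horizontal axis) of each gene in 8 comparisons, filled where edgeR's adjusted p was under 0.05. Nid1 lies at 1.49 with cysteamine and at -1.21 in the knockdown, Nid2 lies below 0 in both, and Col4a2 has no filled point.

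Starvation was measured on far fewer counts. Cysteine starvation against NT, which asks what changes when cysteine alone is withheld, gave Nid1 at 842 and 701 CPM in Cys (51 and 28 counts) and at 251 and 196 CPM in NT (7 and 2 counts). Both starved libraries were above both controls. The log2 fold change was the 13th highest of 1399 (1.72 ± 0.41), with an adjusted p of 0.0753. Nid1 passed under 5 of 15 alternatives and not under the other 10. It passed with table totals in place of TMM (2.40, adjusted p = 0.0127), by DESeq2 (1.68, adjusted p = 0.0344) and by limma (1.71, adjusted p = 0.0452). Table totals also moved the median of all transcripts from 0.011 to 0.70. It did not pass in the fit on the 6 libraries of its own experiment (1.71, adjusted p = 0.306) or without the class high in NT (adjusted p = 0.257). With 1 library left out Nid1 stood between 1.57 (without Cys replicate 1) and 1.99 (without NT replicate 1). With NT2 as the control it stood at 0.64 (adjusted p = 0.0548). Nid2 measured 314 and 350.5 CPM in Cys (19 and 14 counts) and 322 and 294 CPM in NT (9 and 3 counts), with overlapping libraries (0.065 ± 0.40, adjusted p = 0.979). Col4a1 measured 1815 and 2003 CPM against 1576 and 784 CPM (0.55 ± 0.29, adjusted p = 0.368), and Col4a2 990.2 and 1452 CPM against 859.5 and 489.8 CPM (0.69 ± 0.35, adjusted p = 0.345). For these 2 and Nid1 both Cys libraries were above both NT libraries, as for 24.5% of all transcripts. None of the 4 genes was called, and 0 (0%) of all transcripts were by edgeR, which gave 230 of them an unadjusted p under 0.05, while 67 were called by DESeq2 and 5 by limma. Over the 7 fibroblast markers the median was 0.63, with none called.

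In full amino acid starvation against NT the collagen chains stood on opposite sides of 0. Col4a2 measured 2450.0 and 1451 CPM in AA (36 and 33 counts) and 859.5 and 489.8 CPM in NT (24 and 5 counts), above both controls in both libraries (1.34 ± 0.37, adjusted p = 0.346). Col4a1 measured 817 and 1055 CPM (12 and 24 counts) against 1576 and 784 CPM (44 and 8 counts), with overlapping libraries (-0.45 ± 0.35, adjusted p = 0.734), and without NT replicate 1 it stood at 0.29. Nid1 measured 272 and 308 CPM on 4 and 7 counts, above both controls (0.32 ± 0.58, adjusted p = 0.945), and Nid2 204 and 396 CPM on 3 and 9 counts (0.022 ± 0.48, adjusted p = 0.9997). None was called, and 0 (0%) of all transcripts were by edgeR, which gave 109 of them an unadjusted p under 0.05, while 0 were called by DESeq2 and 14 by limma. Both AA libraries lay above both NT libraries for 16.3% of all transcripts. Col4a2 passed when NT2, which belongs to the other experiment, served as the control (1.05, adjusted p = 0.00798). That fit was run with TMM scaling alone, and as an unscaled share of table totals Col4a2 was lower in AA than in NT2. It also passed with NT and NT2 pooled (1.19, adjusted p = 0.00549). It did not pass in the fit on the 6 libraries of its own experiment (1.33, adjusted p = 0.971). With 1 library left out it ran from 0.96 (without AA replicate 1) to 1.94 (without NT replicate 1).

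Cysteine starvation set directly against full starvation called 2 of the 4 genes higher, against 2.57% of all transcripts. Nid1 was 2.65-fold higher in Cys (771 ± 99.5 against 290.0 ± 25.1 CPM; 1.41 ± 0.39, adjusted p = 0.0247) and Col4a1 1.99-fold higher (1909 ± 132 against 936 ± 169 CPM; 0.996 ± 0.31, adjusted p = 0.0382). Col4a2 was lower without passing (1221 ± 326 against 1950.4 ± 707 CPM; -0.65 ± 0.30, adjusted p = 0.157), and Nid2 overlapped (332 ± 26.1 against 299.9 ± 135 CPM; 0.043 ± 0.40, adjusted p = 0.978). Both Cys libraries were above both AA libraries for Nid1 and Col4a1, as for 25.7% of all transcripts. All 7 fibroblast markers were above 0 in the same comparison, with a median of 0.74 and none called. Per 1000 counts of these markers Col4a1 stood at 61.2 and 60.9 in Cys and at 56.3 and 45.7 in AA, and Nid1 at 28.4 and 21.3 against 18.8 and 13.3, and the part of the markers was not tested. Both calls were lost without the class high in NT (adjusted p = 0.219 for Nid1 and 0.295 for Col4a1), which took 38.1% to 57.7% of the counts in Cys and 78.9% to 83.1% in AA. They were also lost in the fit on the 6 libraries of the experiment (0.120 and 0.310), and when 1 library was left out the call of Col4a1 was lost in 4 of 4 fits (adjusted p 0.0697 to 0.232) and that of Nid1 in 3 (0.114 to 0.154), all but the fit without Cys replicate 2. Without AA replicate 2, Col4a2 was called lower in Cys (-1.03, adjusted p = 0.0485).

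Ratios of counts between the genes within a library do not depend on how libraries are scaled. They were chosen after the data were seen and carry exact binomial (Clopper-Pearson) 95% intervals, which cover counting error only; the labels mention no molecular identifiers. For Nid1 per Nid2 the 2 NT2 libraries gave 0.616 (0.496 to 0.763) and 0.555 (0.425 to 0.721), and the cysteamine libraries 2.98 (2.31 to 3.86) and 3.92 (3.08 to 5.03). The intervals of the 4 libraries did not overlap between the groups. The knockdown libraries gave 1.10 (0.580 to 2.08) and 1.71 (0.907 to 3.31), and the rescue libraries 0.8 (0.421 to 1.5) and 0.7 (0.327 to 1.46). In the starvation experiment Cys gave 2.68 (1.56 to 4.81) and 2 (1.02 to 4.11), and NT, on 5 to 16 counts of both nidogens per library, 0.778 (0.246 to 2.35) and 0.667 (0.0557 to 5.82). The intervals of Cys and NT overlapped.

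Col4a2 per Col4a1, the ratio of a head-to-head gene pair, took different values in different groups, with intervals that partly overlapped. It was 0.655 (0.554 to 0.773) and 0.697 (0.574 to 0.846) in NT2, 0.563 (0.460 to 0.687) and 0.540 (0.449 to 0.647) in Cysteamine, 1.01 (0.767 to 1.33) and 0.882 (0.657 to 1.18) in CTNS-KD and 1.19 (0.934 to 1.53) and 0.942 (0.706 to 1.25) in CTNS-KD-rescue. The knockdown and rescue libraries all lay above the NT2 and cysteamine libraries. The intervals of both knockdown libraries and of CTNS-KD-rescue replicate 2 overlapped those of NT2, and that of CTNS-KD-rescue replicate 1 did not. In AA the ratio was 3 (1.53 to 6.33) and 1.38 (0.788 to 2.43), against 0.545 (0.317 to 0.917) and 0.625 (0.161 to 2.17) in NT and 0.545 (0.391 to 0.754) and 0.725 (0.508 to 1.03) in Cys. The interval of AA replicate 2 overlapped both NT intervals, and that of AA replicate 1 overlapped NT replicate 2 but not NT replicate 1. Group means were 0.676 ± 0.0301 in NT2, 0.551 ± 0.0164 in Cysteamine, 0.946 ± 0.0897 in CTNS-KD and 1.07 ± 0.178 in CTNS-KD-rescue. The ratios are given as a description, with no test.

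**Figure D3:**
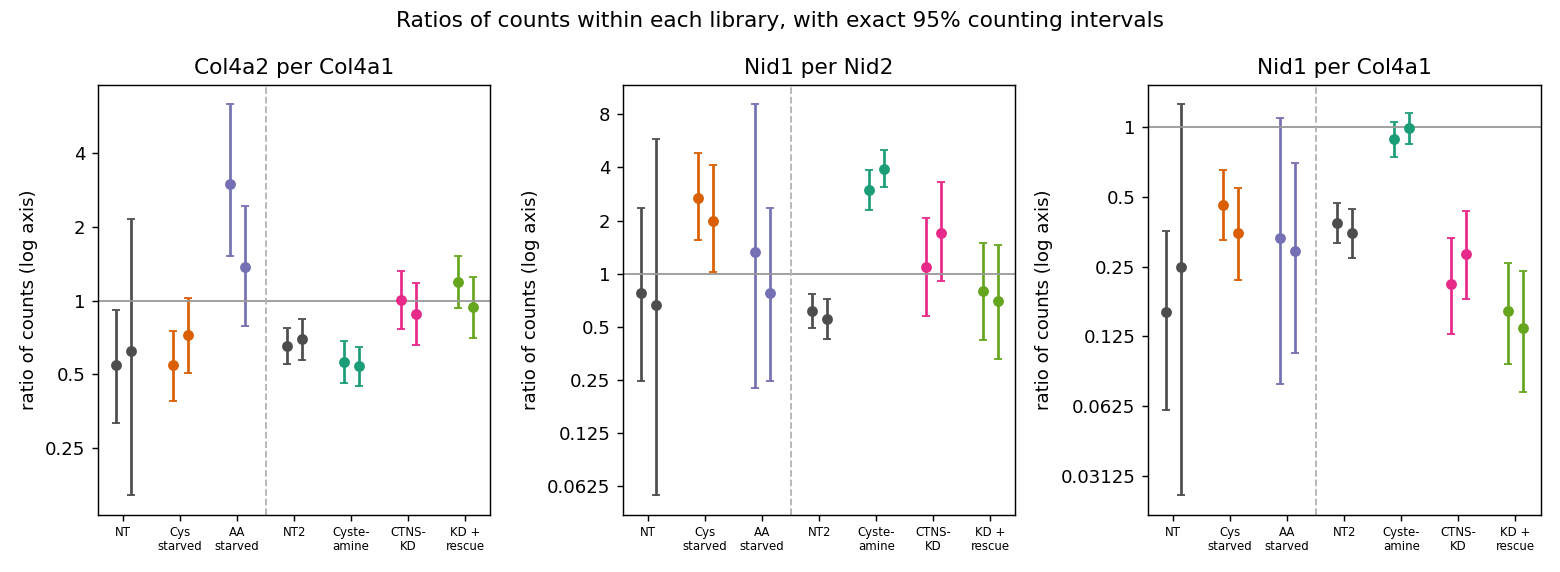
Ratio of counts within each library (log axis) for Col4a2 per Col4a1, Nid1 per Nid2 and Nid1 per Col4a1, with exact 95% counting intervals, by group. The cysteamine libraries have Nid1 per Nid2 of 2.98 and 3.92, and the 4 knockdown and rescue libraries have Col4a2 per Col4a1 between 0.882 and 1.19.

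The basement membrane contains further parts, and 21 of the 81 genes in 6 lists drawn up for it were measured. The lists, too, were drawn up with earlier results of these data known, and their counts are descriptive. Calls of the list genes were not followed under the alternatives. In the knockdown against NT2, 14 of the 21 were called lower, against 13.2% of all transcripts. Just 1 was called higher, against 246 of 1399 transcripts. The median log2 fold change was -0.70 against 0.092 over all transcripts. Among laminins, the polymer that nidogen binds, Lamc1, whose γ1 chain carries the nidogen-binding site, fell (-0.96 ± 0.22, adjusted p = 0.00502) as did Lamb1 (-0.60 ± 0.19, adjusted p = 0.0259), and Lama5 stood at -0.33. Both other collagen IV chains measured, Col4a5 (-1.41 ± 0.26) and Col4a6 (-1.32 ± 0.44), fell. Col4a6 had a mean of 15 counts per library and an adjusted p of 0.0323. Of the other components, the collagen-binding glycoprotein gene Sparc (-1.93 ± 0.36) and the fibulin gene Fbln2 (-1.15 ± 0.28) fell, and Hspg2, which encodes perlecan, was not called (-0.50 ± 0.29). The collagen crosslinking oxidase gene Lox fell most (-2.83 ± 0.21, adjusted p = 7.10e-07), with Loxl2, P4hb and the collagen chaperone gene Serpinh1 (-0.98 ± 0.25) also lower. P4ha1, a catalytic subunit of collagen prolyl 4-hydroxylase, was the 1 gene to rise (1.31 ± 0.33, adjusted p = 0.00834). Of receptors, Itgav fell (-1.32 ± 0.22), and of proteases and inhibitors Timp3 (-1.77 ± 0.25), Adamts1 and Ctsl did. In the same comparison 5 of 7 fibroblast markers fell, and their part in the list's fall was not tested.

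With cysteamine 2 of the 21 were called, Lox (-0.82 ± 0.16, adjusted p = 0.00374) and the protease gene Adamts1 (-1.20 ± 0.21, adjusted p = 0.00259), both lower, a share close to the 10.5% called among all transcripts, and the median was -0.41 against 0.13 over all transcripts. None of the 21 was called higher, against 77 of 1399 transcripts, and Lamc1 stood at -0.30 ± 0.19. In the rescue 9 were called lower than in NT2, against 12.9% of all transcripts, and 1, P4ha1 (1.82 ± 0.33), higher. Of all 1399 transcripts 261 were called higher there. Against the knockdown 0 of the 21 were called, where 0.643% of all transcripts were, and 15 were above 0. Between knockdown and cysteamine 8 were lower, against 14.7% of all transcripts, and 0 higher, against 141 of 1399. In cysteine starvation 0 of 21 were called and 19 were above 0 (median 0.46, against 0.011 over all transcripts), led by Lox (1.05 ± 0.29) and Hspg2 (1.03 ± 0.36). In full starvation 0 were called and 11 were above 0. The differences between the effects of cysteamine and of cysteine starvation called none of the 4 genes (adjusted p 0.134 for Nid2 to 0.844 for Nid1), where 6.79% of all transcripts were called, and 3 of the 21, lower. Between the starvations Timp2 and Timp3 were called higher and P4ha1 lower in Cys. Of all transcripts 2.57% were called higher there and 15.0% in either direction.

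**Figure D4:**
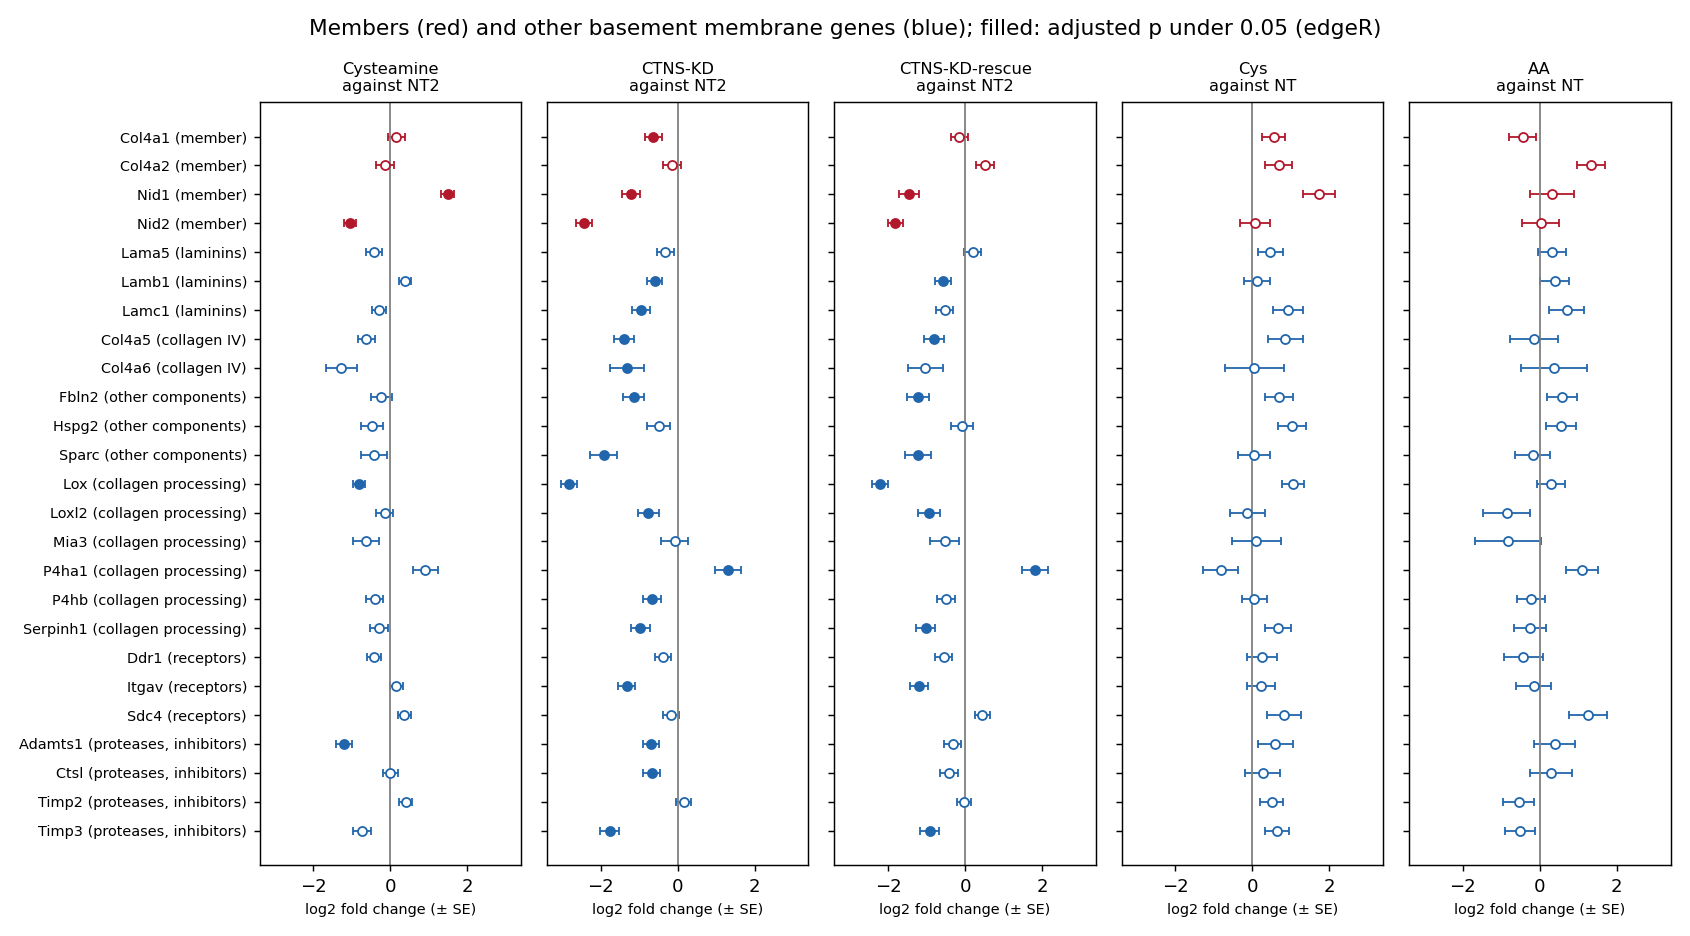
Log2 fold change with SE (horizontal axis) of the 4 genes (red) and the 21 other basement membrane genes (blue) in 5 comparisons with untreated cells, filled where edgeR's adjusted p was under 0.05. In the knockdown 14 blue points are filled below 0 and P4ha1 is filled above 0, with cysteamine Nid1 is the only filled point above 0, and neither starvation has a filled point.

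The transcripts nearest in profile were sought among 887 with a symbol and a mean count of at least 20, by the root mean square difference of log2 CPM over 14 libraries after each experiment's mean was subtracted. For Nid2 the nearest were the fibrillar collagen gene Col3a1 (0.251), Ppfibp1 (0.284) and Igfbp4 (0.319), against a median distance of 0.774. The nearest to Col4a1 were Hnrnph1 (0.185), Actn4 (0.225) and Tpm1 (0.226), with a median of 0.521. Those of Col4a2 were Stk39 (0.263), Rest (0.288) and Cic (0.298), with a median of 0.716. Nid1 had no close neighbour: the nearest were Rpl12 (0.519), the prostacyclin synthase gene Ptgis (0.534) and Cad (0.580), with a median of 0.985. The 4 genes were not nearest to each other. The collagen chains were 0.646 apart, with Col4a2 the 626th nearest of 887 to Col4a1 and Col4a1 the 313th nearest to Col4a2. The nidogens were 0.870 apart, with Nid2 the 228th nearest to Nid1 and Nid1 the 610th nearest to Nid2.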

How the data were processed

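Polyadenylated RNA from 14 libraries of mouse embryonic fibroblasts was analysed, 2 in each of 7 groups taken from the sample titles. Fragments of RNA were size-selected on a gel, tailed, ligated and amplified, per the labels' protocols. Per the submitters' processing notes, which give no roles or order, the tools were STAR 2.7.10a, Bowtie 1.2.3, cutadapt 2.8 and bcl2fastq 2.20.0.422, on GRCm39. For the counter, annotation and strand setting the entry is: not given in the sources used here. The authors deposited whole-number counts per Ensembl transcript, in tables whose names say CPM; the smallest is 1, so a fall to 0 cannot be seen. The plan allowed for either unit, and the count test was used. Symbols (1385 of 1399) and transcript lengths came from GENCODE M21, and promoter sequences from RefSeq on GRCm38.p6.

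edgeR 4.0.16 in R 4.3.3 fitted 7 group means to all 14 libraries (7 residual degrees of freedom) with TMM scaling and a two-sided quasi-likelihood test of 8 comparisons and 2 differences between effects, and was tested on simulated data. Nothing in the labels ties the 2 libraries of a group to separate cultures; p-values then cover just their spread, possibly a technical one. The chi-square divided by its degrees of freedom, between the libraries of a group, was 2.54 to 4.55 in NT, Cys and AA and 1.55 to 1.95 in the others, so no pair was taken as one library. Genes named are the 4 members, the 3 transcripts nearest in profile to each, and genes of 6 basement membrane lists that were called or had the highest counts of their list. The members and lists were chosen with earlier results of these data known. Log2 CPM for profiles used a prior count of 2. The class high in NT holds transcripts whose ratio of mean CPM in NT to NT2 exceeded 2 times the median ratio. Where 1 library was left out, the lone library of its group was assumed to vary like the others. DESeq2 1.42.0 and limma 3.58.1 served as alternatives.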

Additional observations from a re-analysis of the deposited data

Results flagged for a closer look

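The effect of the knockdown (against NT2) and that of cysteine starvation (against NT) differed for 3 of the 4 genes by a test of the difference itself, against 7.15% of all transcripts called with a lower difference. Nid1 differed by -2.94 on the log2 scale (SE 0.46, adjusted p = 0.000692 by edgeR), with both Cys libraries above both NT libraries and both knockdown libraries below both NT2 libraries. Nid2 differed by -2.50 (SE 0.44, adjusted p = 0.00117) and Col4a1 by -1.18 (SE 0.37, adjusted p = 0.0347). The difference for Nid1 and Nid2 passed under all 16 alternatives run, with adjusted p of at most 0.00587 and 0.00745; that of Col4a1 was lost under 11 of the 16, including 7 of the 8 omissions of 1 library (adjusted p 0.0536 to 0.114; the exception was NT replicate 1). All 7 fibroblast markers lay below 0 in the same difference, 4 of them called, with a median of -2.17, and their part was not tested. Experiment and treatment differ together here, since each effect was measured against its own untreated group. Every alternative run for these differences pooled the spread over both experiments. Fitted on its own experiment, the effect of cysteine starvation had an SE of 0.64 for Nid1 and 0.61 for Nid2. In the main fit these were 0.41 and 0.40.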

How the results depend on the processing

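Over 40 results of single genes and 564 alternatives, 474 kept their direction and side of the threshold, 42 lost the call, 15 gained one and 33 changed sign. The lower calls of Nid1 and Nid2 in the knockdown and in the rescue against NT2, and of Nid1 between knockdown and cysteamine, held under all 13 alternatives each. The number of the 4 genes called was 0 for cysteine starvation against NT, and 1 with table totals, DESeq2, limma, the replicate block or NT2 as the control; with 1 library left out it was 0 to 1. For full starvation it was 0, and 2 against NT2 and 1 against NT and NT2 pooled, and 0 to 1 with 1 library left out. Between the starvations it was 2, and 1 by DESeq2 or at a mean count of at least 20, 0 without the class high in NT or in its own experiment, and 0 to 1 with 1 library left out, the 1 being Nid1 higher without Cys replicate 2 and Col4a2 lower without AA replicate 2. With cysteamine it was 2, and 0 by limma and 1 to 2 with 1 library left out. Between rescue and knockdown it was 0, and 1 without the class high in NT or in its own experiment. Between knockdown and cysteamine it was 3, and 1 by limma. For the difference of the cysteamine and cysteine effects it was 0, and 1 with table totals. For cysteine starvation the gene called with table totals, DESeq2, limma and the replicate block was Nid1, higher. With NT2 as the control it was Nid2, lower. For full starvation against NT2 the genes called were Col4a2, higher, and Nid2, lower, and against the pooled controls Col4a2, higher. The cause of these changes was not tested.

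These log2 values changed sign, none of them called before. Nid2 in Cys against NT was -0.093 at a mean count of at least 20, -0.17 without the class, -1.37 against NT2 and -0.65 against NT and NT2 pooled, and from -0.0040 (without Cys replicate 2) to 0.16 with 1 library left out; against NT2 it was called lower. In AA against NT Nid1 was -0.049 with table totals, -0.77 with NT2 and -0.23 with both controls, and Col4a1 ran from -0.72 to 0.29 (without NT replicate 1) with 1 library left out. Nid2 there was -0.34 with table totals, -0.10 by limma, -0.065 without the 3 dominant transcripts, -0.064 with the replicate block, -0.093 in its own experiment, -1.41 with NT2 and -0.70 with both controls, -0.013 without NT replicate 2, and from -0.62 (without AA replicate 2) to 0.33 with 1 library left out; against NT2 it was called lower. In Cys against AA Col4a2 was 0.37 with table totals, and Nid2 -0.20 at a mean count of at least 20, -0.28 without the class, -0.027 without Cys replicate 2, and from -0.27 (without AA replicate 1) to 0.68 with 1 library left out. Col4a1 with cysteamine was -0.0027 with table totals and in the rescue against NT2 0.053 without the class; Nid1 in the rescue against the knockdown ran from -0.54 to 0.073 (without CTNS-KD replicate 2). Col4a2 between knockdown and cysteamine was 0.0081 with size factors and by DESeq2, 0.10 at a mean count of at least 20, 0.067 without the dominant transcripts, 0.14 without the class, 0.0010 without CTNS-KD replicate 2, and from -0.022 to 0.012 (without Cysteamine replicate 1) with 1 library left out.

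Labels give groups the same replicate numbers but do not say that a number pairs libraries. Replicate differences correlated at 0.30 between NT and Cys, -0.19 between NT and AA, -0.023 between Cys and AA and 0.13 to 0.29 in the other experiment. The replicate block moved the number of genes called in Cys against NT alone (0 to 1, Nid1), and the number of all transcripts called there from 0 to 80 and with cysteamine from 147 to 269. With the AA numbers crossed, chosen after seeing the data, 0 of the 4 genes and 12 transcripts were called.

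Table totals in place of TMM moved the median log2 fold change of all transcripts from 0.011 to 0.70 for Cys against NT and from 0.051 to 1.09 for Cys against AA, where the share of calls that were higher went from 17.1% to 86.5%. That share went from 52.4% to 34.4% with cysteamine, from 59.2% to 43.4% in the rescue against NT2, and from 65.3% to 17.4% and 62.7% to 31.0% in the differences of the cysteamine and knockdown effects from the cysteine effect. Over the alternatives the number of all transcripts called ran from 0 to 248 for Cys against NT, 0 to 459 for AA against NT, 16 to 548 between them, 0 to 375 with cysteamine, 114 to 568 in the knockdown, 145 to 578 in the rescue against NT2, 1 to 58 against the knockdown and 4 to 529 between knockdown and cysteamine. For the differences of effects it ran from 0 to 178 (cysteamine) and 56 to 451 (knockdown). Counts of 2 to 9 per library for the nidogens in NT limit the starvation results.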
